A study of Mus musculus with 12 samples.

Results

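The transcriptome described here is that of cultured +/+ hepatocytes under a control hairpin, the control-vector arm of a study that includes the coactivator PGC-1alpha. Its members are the 3 arrays titled as +/+ cells with the control vector, of 12 arrays in 4 groups of 3. Each array holds 1 culture of hepatocytes from 1 C57BL/6 mouse that carried both intact copies of PGC-1alpha. Livers were perfused with collagenase, and the dispersed cells were plated on collagen in Williams E medium with 10% fetal bovine serum, L-glutamine, 100 nM dexamethasone and 100 nM insulin. The cells were exposed overnight to an adenovirus carrying a control short hairpin RNA (Ad-shC) at a multiplicity of infection of 5, and were harvested 24 h after infection. All 3 cultures therefore share the hormones, the serum, the virus and the plastic, and no fresh liver or uninfected culture was set beside them here. The labels number mice, assays and cultures alike, and the 4 arrays of a number share 1 scan start time, so mouse, isolation, assay and scan cannot be told apart.

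Hepatocytes make most plasma proteins, carry out gluconeogenesis and the urea cycle, synthesize bile acids and oxidize drugs with cytochromes P450. Many of these genes are kept active by liver-enriched transcription factors such as HNF4alpha. Plated hepatocytes are known to lose part of this programme and to gain cytoskeletal, stress and growth genes, and dexamethasone and insulin are added to slow that loss. The liver also holds Kupffer cells (its resident macrophages), sinusoidal endothelial cells, stellate cells, which store vitamin A, and cholangiocytes, which line bile ducts, and a preparation of hepatocytes can carry some of each.

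The arrays had 1 colour and 41174 probes that are not controls, of which 24382, 22706 and 25656 were well above background in cultures 1, 2 and 3, by the scanner software's own flag. No spot was saturated. Of 153 negative-control spots 1, 9 and 3 carried that flag. Through RefSeq accessions 24375 probes matched a gene symbol, and 17016 genes had at least 1 probe. A gene was represented by its brightest probe, and 5779 genes had more than 1. The level of a gene is the mean over the 3 cultures of the authors' deposited log2 signal, so that 1 unit is a factor of 2, and SD is the spread over the 3 cultures (n = 3 throughout). Values are always given in the order culture 1, 2 and 3. Ranks and percentiles order probe signals, which also depend on the probe: where a gene had a second probe above background, both probes differed by a median of 1.72 units and by more than 2 units in 43.6% of 3879 genes. The order of genes is therefore an order of signals and not of transcript amounts.

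Of the 17016 genes, 11512 (67.7%) were well above background in all 3 cultures, 962 in 2, 1065 in 1 and 3477 (20.4%) in none. Genes above background in every culture had a median level of 10.11, against 1.55 for those above it in none. Culture 2 was the one most often lacking: 708 genes were above background in cultures 1 and 3 alone, whereas 213 lacked only culture 1 and 41 lacked only culture 3. The lowest log2 signal that carried the flag was also higher on that array, at 4.27, against 3.55 in culture 1 and 3.05 in culture 3, and its part in these counts was not tested.

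**Figure D1:**
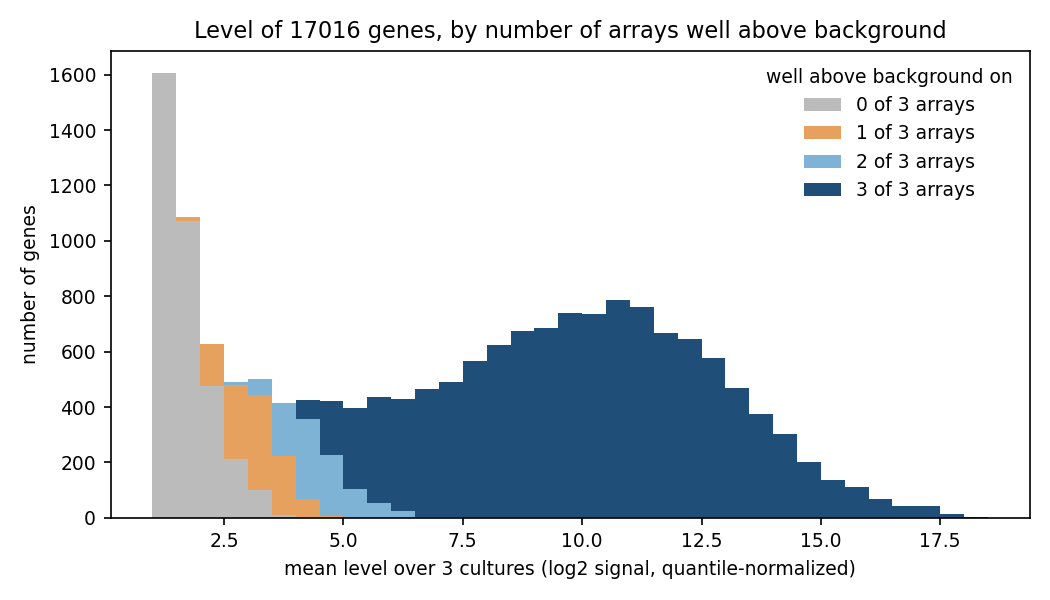
Number of genes (vertical axis) by mean level over the 3 cultures (horizontal axis, log2 signal in bins of 0.5), stacked by the number of arrays on which the gene's probe was well above background. The 3477 genes above background on no array form the peak on the left, and the 11512 genes above it on all 3 arrays spread from 4.02 to 18.07.

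The brightest genes were those of the ribosome and of hepatocyte export. Of the 30 genes with the highest level, 14 encode ribosomal proteins, led by Rps18 at 18.07, 17.98 and 18.17 and followed by Rpl7a. The third was Aldoa, the aldolase of muscle and most other tissues, at 17.95, 18.17 and 17.92. Secreted liver products in this group were Ambp (a precursor of the inhibitor bikunin and of alpha-1-microglobulin), Alb (albumin), Hpx (the haem carrier hemopexin), Clu (clusterin) and C3 (the central complement protein). Alb read 17.75, 17.55 and 17.19 (mean 17.50 ± 0.28), with culture 1 the highest. The ferritin chains Fth1 (17.62, 17.68 and 17.78) and Ftl1 (17.32, 17.83 and 17.88), which store iron, were there too, as were Gstp1, which joins glutathione to electrophiles, and Krt18, a keratin of simple epithelia. The SD of the 30 genes had a median of 0.12 and was largest in C3, at 0.79, with values of 17.64, 17.86 and 16.40, lowest in culture 3. Quantile normalization gives every array the same set of values. A probe with the same rank on every array therefore has an SD of 0, as Rpl7a did, at 18.02 in each culture. How far this narrows the SD of the brightest genes was not tested.

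Genes for plasma carriers and protease inhibitors were bright almost throughout. All 23 measured genes were above background in every culture, their median percentile among the 17016 genes was 95.4, and 16 lay above percentile 90. The iron carrier Trf read 17.19, 16.62 and 16.23, and Rbp4, which carries vitamin A, read 17.21, 16.60 and 16.94. The thyroid hormone carrier Ttr had a dimmer probe, at 10.87, 9.63 and 8.73. The dimmest was the corticosteroid carrier Serpina6, at 6.20, 7.11 and 6.94. The clotting genes had 18 of 19 above background in every culture and a median percentile of 85.1, and complement 16 of 17 and 84.7. The apolipoprotein list, which also holds Mttp and Lcat, had 14 of 14 and 86.9. Apoe, a ligand for lipoprotein receptors, led the apolipoproteins at 17.26, 16.69 and 16.40, and prothrombin, F2, led clotting at 16.42, 15.63 and 15.38. The acute phase genes had 19 of 20 above background everywhere, among them Hp (haptoglobin) at 17.98, 16.77 and 16.84 and Saa2 (a serum amyloid) at 16.10, 16.64 and 16.73.

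**Figure D2:**
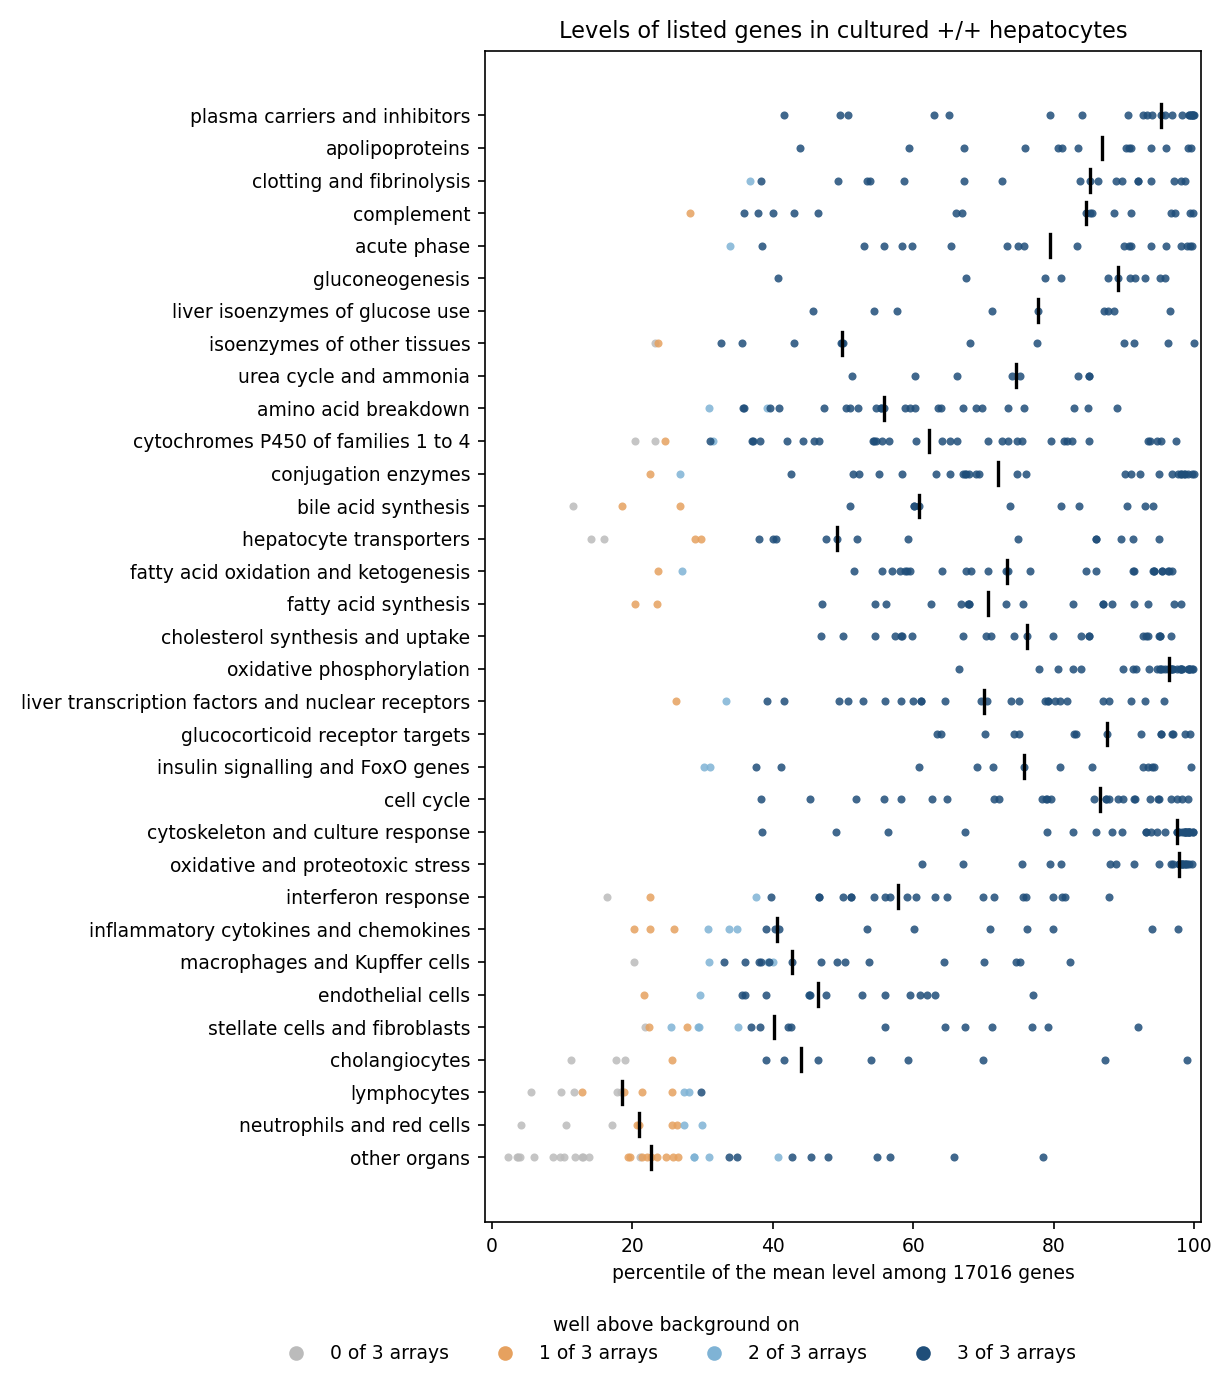
Percentile of the mean level among 17016 genes (horizontal axis) for the members of 33 gene lists (rows); each point is a gene, coloured by the number of arrays on which it was well above background, and the vertical bar is the list's median. Oxidative phosphorylation, cytoskeleton, stress and plasma carrier genes lie furthest right, and lymphocyte, neutrophil and other-organ genes furthest left.

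The plasma proteins were also the first to show a pattern that returned in many of the liver lists: culture 1 read higher than the other 2. The highest of the 3 values fell in culture 1 for 21 of 23 plasma carriers and inhibitors and 17 of 19 clotting genes. It did so for 15 of 17 complement genes and 13 of 14 genes of the apolipoprotein list, against 33.9% of all genes. Culture 1 minus the mean of the other 2 had a median of 0.81, 1.16, 1.35 and 1.76 units in these lists, and of -0.01 over all genes. For complement it was 0.74 after normexp, another background correction made from median spot signals. The acute phase genes did not share the pattern: culture 1 was highest in 9 of 20, with a median of -0.12. The 3 fibrinogen chains, which form the clot, differed widely. Fgb read 17.78, 13.25 and 15.08, a span of 23.0-fold. Fgg read 16.18, 11.44 and 12.64 and Fga 11.81, 5.99 and 7.98, so that culture 1 was highest and culture 2 lowest in all 3. With 1 array to a culture no test of a culture is possible. In bulk RNA, fewer cells of a type and less RNA per cell cannot be told apart.

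Promoters were read from 250 bases before to 50 after the annotated start (RefSeq, GRCm38.p6) to describe what genes of hepatocyte products share. They are shown for Rps18, the brightest gene, for Alb, for all 3 fibrinogen chains and for Bhmt. Among genes above background in every culture, Bhmt stood furthest above in culture 1. Capitals mark each CG, the pair of letters at which DNA is methylated and which is dense in the promoters of broadly expressed genes. TATAAA, 1 exact spelling of the TATA box, was searched on both strands and occurred in none of the 6. Other spellings of the box were not searched, so these counts do not show that a promoter lacks it. These genes were chosen after values had been seen.
Rps18, chr17:33955616-33955915, minus strand: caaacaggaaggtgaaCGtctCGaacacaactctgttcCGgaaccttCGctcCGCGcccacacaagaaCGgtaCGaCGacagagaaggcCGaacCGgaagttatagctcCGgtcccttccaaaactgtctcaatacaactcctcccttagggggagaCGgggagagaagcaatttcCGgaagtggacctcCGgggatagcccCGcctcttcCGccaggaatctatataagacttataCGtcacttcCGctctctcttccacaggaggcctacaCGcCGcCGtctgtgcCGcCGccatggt
Alb, chr5:90460620-90460919, plus strand: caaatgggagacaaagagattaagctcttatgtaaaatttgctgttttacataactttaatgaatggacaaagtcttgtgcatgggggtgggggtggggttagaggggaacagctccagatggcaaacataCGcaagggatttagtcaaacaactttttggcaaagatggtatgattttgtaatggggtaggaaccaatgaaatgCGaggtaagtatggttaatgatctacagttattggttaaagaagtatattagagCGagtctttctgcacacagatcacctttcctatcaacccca
Fga, chr3:83025903-83026202, plus strand: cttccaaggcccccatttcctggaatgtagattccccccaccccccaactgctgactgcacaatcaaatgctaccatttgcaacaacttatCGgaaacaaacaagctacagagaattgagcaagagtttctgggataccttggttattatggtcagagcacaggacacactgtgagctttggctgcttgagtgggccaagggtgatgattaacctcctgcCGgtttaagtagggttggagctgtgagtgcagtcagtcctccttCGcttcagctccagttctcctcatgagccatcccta
Fgb, chr3:83049814-83050113, minus strand: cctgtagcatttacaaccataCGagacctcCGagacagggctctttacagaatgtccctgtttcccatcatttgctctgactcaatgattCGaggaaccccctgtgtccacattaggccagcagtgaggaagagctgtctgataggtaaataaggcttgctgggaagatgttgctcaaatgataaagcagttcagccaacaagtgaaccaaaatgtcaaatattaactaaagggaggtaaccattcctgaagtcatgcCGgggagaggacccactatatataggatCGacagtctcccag
Fgg, chr3:83007474-83007773, plus strand: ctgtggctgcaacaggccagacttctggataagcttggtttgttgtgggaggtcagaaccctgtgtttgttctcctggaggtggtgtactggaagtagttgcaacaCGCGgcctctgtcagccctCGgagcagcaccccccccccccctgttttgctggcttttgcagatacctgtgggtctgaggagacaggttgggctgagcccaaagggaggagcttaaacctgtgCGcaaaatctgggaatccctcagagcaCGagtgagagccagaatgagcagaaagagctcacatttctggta
Bhmt, chr13:93637709-93638008, minus strand: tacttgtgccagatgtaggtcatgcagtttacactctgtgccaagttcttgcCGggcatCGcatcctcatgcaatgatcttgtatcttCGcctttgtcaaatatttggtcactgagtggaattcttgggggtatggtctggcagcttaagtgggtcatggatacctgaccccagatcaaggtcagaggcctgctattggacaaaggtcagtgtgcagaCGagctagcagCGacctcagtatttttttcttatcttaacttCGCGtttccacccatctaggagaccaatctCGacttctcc
The Rps18 window has 24 CG pairs. Alb and Fga have 3 each, Fgb and Fgg 5 each and Bhmt 8, so that the hepatocyte genes shown all have fewer than the ribosomal gene.

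The same letters were counted in the 13589 genes with both a probe and an entry in the promoter table. Genes above background in all 3 cultures had a median of 20 CG pairs in the window, against 3 for genes above it in none and 16 for all 13589. TATAAA was present in 7.96% of the first, 23.9% of the second and 12.1% of all 13589. Over all 27025 genes of the promoter table, with 1 promoter kept for each, it was present in 14.2%. The 114 matched genes of 7 lists of hepatocyte products and enzymes (plasma carriers, clotting, complement, apolipoproteins, amino acid breakdown, cytochromes P450 and bile acid synthesis, joined after their values were seen) stood nearer to the undetected genes in these counts. TATAAA occurred in 31.6% of them, with a median of 4 CG pairs. Genes above background in all 3 cultures were also grouped by the culture that stood more than 2 units above the mean of the others. For culture 1, 21.5% of 209 promoters held TATAAA, against 11.7% of 247 for culture 2 and 3.75% of 80 for culture 3. The median CG count of these genes was 5, 11 and 24.5. These shares describe letters and not binding.

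Glucose metabolism showed liver and non-liver isoenzymes side by side. All 11 measured gluconeogenic genes were above background in every culture, with Fbp1 (fructose-1,6-bisphosphatase) at 15.73, 12.03 and 13.07 and Pcx (pyruvate carboxylase) at 13.56, 14.06 and 12.39. G6pc, the catalytic subunit that releases free glucose, was the dimmest of them at 8.43, 6.29 and 5.10, highest in culture 1. All 9 liver isoenzymes of glucose use were detected everywhere. The liver glucose transporter Slc2a2 read 11.54, 8.23 and 7.55, highest in culture 1. Pklr (liver pyruvate kinase) read 8.86, 9.55 and 7.74 and Gys2 (liver glycogen synthase) 11.62, 11.90 and 8.58, both highest in culture 2.

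Of 14 isoenzymes that other tissues use, 12 were above background in every culture. Besides Aldoa, the bright ones were Slc2a1, the glucose transporter of most proliferating cells, at 13.63, 15.66 and 14.10, the pyruvate kinase Pkm at 12.53, 14.62 and 12.77 and the hexokinase Hk2 at 12.58, 14.63 and 12.02. Hk1 read 6.51, 10.37 and 7.39, the phosphofructokinase Pfkp 10.57, 13.16 and 10.48 and the glycogen synthase Gys1 6.21, 8.99 and 5.87. These 6 were all highest in culture 2, as were 9 of the 14 (36.4% of all genes). The median of culture 2 minus the mean of the others was 0.97, and 0.50 after normexp. Slc2a4, the insulin-responsive transporter, read 6.13, 5.29 and 5.38, and Aldoc, Pfkm, Pygb and Hk3 had SDs of 0.77, 0.23, 0.42 and 0.60. Pygm was above background in 1 culture and Slc2a3 in none.

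Enzymes that break down amino acids were detected but rarely bright, and they differed widely between cultures. Of 27 measured, 25 were above background in every culture, their median percentile was 55.9 and none lay above percentile 90. Culture 1 was highest in 25 of 27 (33.9% of all genes) and culture 2 lowest in 19 (36.4% of all genes). Culture 1 stood above the mean of the others by a median of 1.91 units, and culture 2 stood 1.46 below (median -1.46). After normexp the median of culture 1 was 0.85. Bhmt, which remethylates homocysteine with betaine, read 12.89, 6.13 and 7.66, a span of 109-fold, and Hgd, of tyrosine breakdown, 9.87, 4.52 and 5.54. Tat (tyrosine aminotransferase), a classic target of glucocorticoids, read 11.53, 9.54 and 8.52. Gldc, the glycine decarboxylase, was the brightest at 13.38, 12.32 and 13.01, and Ahcy varied little, at 9.40, 9.19 and 9.45. The list of urea cycle and ammonia genes also holds Glul and Gls2. There culture 1 was highest in 3 of 8 genes, or 37.5%, near the 33.9% of all genes. Culture 2 was highest in 5 of the 8, against 36.4% of all genes. Ass1 (12.34, 12.48 and 12.23) kept within a narrow range, whereas Arg1, the arginase that releases urea, read 13.06, 7.10 and 8.15. Arg1 thus spanned 61.9-fold between cultures, with an SD of 3.18 against 0.12 for Ass1. Otc read 8.53, 8.37 and 8.03 on its brighter probe, with an SD of 0.25, and 7.44, 6.47 and 6.24 on its other probe, with an SD of 0.64.

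Cytochromes P450 of families 1 to 4, the oxidases of drugs, steroids and fatty acids, had 32 of 36 genes above background in every culture and a median SD of 1.36, against 0.48 over all genes. The brightest was Cyp2a5 at 14.51, 15.56 and 14.77, followed by Cyp2a4 and Cyp2c70. Members of a subfamily are near copies of each other, so their probes may share signal. Culture 1 was highest in 24 of 36 (33.9% of all genes), with a median of 1.42 above the others (0.86 after normexp). Cyp3a11, a major drug oxidase, read 13.79, 9.27 and 10.21, whereas Cyp3a13 read 13.73, 13.84 and 13.80 and Cyp2e1, the ethanol oxidase, 6.85, 6.97 and 6.71. Cyp1a1, a target of the aryl hydrocarbon receptor, took the opposite order, 6.75, 10.64 and 8.69, with culture 2 the highest. Cyp4a12a and Cyp1b1 were above background in no culture.

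Conjugating enzymes were steadier and brighter, with 13 of 30 above percentile 90 and a median SD of 0.56. Gstp1 (17.58, 17.64 and 17.49) and Gstm1 (17.22, 17.26 and 16.86), both glutathione transferases, led them. In bile acid synthesis 10 of 13 genes were above background everywhere. Cyp7a1, the rate-limiting enzyme, was above background in culture 1 alone (7.02, 3.31 and 1.03), Akr1d1 likewise (5.00, 1.03 and 1.02), and Cyp8b1, which makes cholic acid, in none. Among transporters culture 1 was highest in 8 of 17 (33.9% of all genes), with a median of 0.04. The canalicular pumps Abcb4 (14.74, 14.07 and 13.43) and Abcb11 (10.60, 12.33 and 10.37) were above background in all cultures. Slc10a1, which takes bile salts up from blood, was above background in culture 1 alone (7.43, 2.94 and 2.82), and Abcg8 and Slc51a in none.

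Lipid genes differed in spread, with a median SD of 0.74 in fatty acid oxidation and ketogenesis, against 0.48 over all genes. Fatty acid oxidation and ketogenesis had 26 of 28 genes above background in every culture. Culture 1 was highest in 22 of 28 (33.9% of all genes), with a median of 1.19 above the others. The mitochondrial thiolase Acaa2 read 15.21, 14.41 and 14.36 and Cpt1a, which admits fatty acids to mitochondria, 11.50, 10.82 and 10.49. Fgf21, a fasting hormone, read 10.91, 6.97 and 7.17, highest in culture 1. Fatty acid synthesis had 18 of 20 above background everywhere and a median SD of 0.50, with Fasn, the synthase itself, at 14.89, 14.36 and 15.08. Cholesterol synthesis and uptake had 23 of 23 and a median SD of 0.54. There culture 1 was lowest in 12 of 23 genes (31.2% of all genes).

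The listed genes of oxidative phosphorylation varied little between cultures. All 30 genes were above background in every culture, the median percentile was 96.5 and the median SD 0.19, with none over 1 unit. Cox6a1 (17.31, 17.28 and 17.47) and Atp5b (17.11, 17.09 and 17.04), subunits of cytochrome oxidase and of ATP synthase, were the brightest. Culture 2 was the lowest in 26 of 30 (36.4% of all genes), by a median of 0.30 (median deviation -0.30). Ndufb5 varied most, at 10.87, 9.48 and 10.16.

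Transcription factors of the liver were above background in every culture in 26 of 28 cases. Foxa2, a pioneer factor, was the brightest at 14.60, 13.74 and 14.47. Hnf4a read 12.67, 10.93 and 11.16, highest in culture 1, and Nr1h4, the bile acid receptor FXR, 12.35, 9.27 and 9.97. Nr0b2, a repressor that FXR induces, had the largest SD of the list at 7.31, 1.16 and 6.90, above background in cultures 1 and 3 but not 2. Cebpa varied less, at 9.53, 8.71 and 9.27.

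Genes that answer the hormones in the medium were largely detected. All 15 measured glucocorticoid receptor targets were above background in every culture, with a median percentile of 87.6. The metallothionein Mt2 read 17.01, 17.21 and 15.71, Tsc22d3 (GILZ) 12.41, 12.31 and 11.57 and Fkbp5 10.47, 9.24 and 9.69. Of 15 insulin signalling and FoxO genes 13 were above background everywhere. Igfbp1, which insulin represses, was the brightest at 17.27, 17.09 and 16.47, and Srebf1, which insulin induces, read 13.86, 13.56 and 13.78. Insr, the insulin receptor, read 4.03, 5.31 and 4.63 and was above background in 2 cultures.

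The PGC-1 coactivators were above background in every culture. Ppargc1a, encoding PGC-1alpha, read 9.03, 10.39 and 8.23, at percentile 58.5, its relative Ppargc1b had a mean of 7.98 ± 0.26, and Pprc1 one of 10.79 ± 0.14. Ppargc1a was highest in culture 2.

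Genes known to come up when hepatocytes are plated were among the brightest of all. The cytoskeleton and culture list had 31 of 31 genes above background everywhere and 22 above percentile 90. The keratins Krt18 and Krt8 led it, and vimentin, Vim, an intermediate filament of mesenchymal cells, read 16.67, 16.18 and 16.00. Ccn2, a target of YAP, read 16.17, 16.79 and 15.30. Actb, cytoplasmic beta-actin, read only 8.70, 9.17 and 8.99 on its 1 probe. Stress genes had 23 of 23 and a median percentile of 97.8, with Sod1 (superoxide dismutase) at 17.03, 16.87 and 17.20. Hmox1, the haem oxygenase that oxidants induce, read 13.96, 17.04 and 15.37, highest in culture 2. The immediate early list had 16 of 16, with Junb at 16.01, 16.14 and 15.45 and Fos, the archetype of that class, at 7.43, 7.12 and 8.18. Afp, alpha-fetoprotein, a marker of fetal liver, read 16.11, 15.42 and 14.04, and Dlk1 was above background in no culture.

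Cell cycle genes were bright as well. All 28 measured were above background in every culture, with a median percentile of 86.6. Genes of DNA replication led the list, among them Mcm6, a part of the replicative helicase, at 15.92, 15.88 and 16.33, and Pcna, the sliding clamp of DNA polymerases, at 14.71, 15.36 and 16.33. Culture 2 was the lowest in 16 of 28 (36.4% of all genes), by a median deviation of -0.81 (-0.53 after normexp and -0.51 without culture 3). Plk1, a mitotic kinase, read 14.32, 10.90 and 13.55, Cdc20 14.66, 11.31 and 14.05 and Aurka 14.69, 12.54 and 14.12, while the topoisomerase Top2a read 9.47, 8.31 and 8.89. Pcna and Mcm3 were lowest in culture 1 instead, at 14.71, 15.36 and 16.33 and 10.44, 11.92 and 12.06.

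Of the 44 lists, inflammatory cytokines and chemokines had the highest median deviation of culture 2. Culture 2 was the highest in 15 of 16 genes (36.4% of all genes), with a median of 2.00 above the mean of the others (1.05 after normexp). Of the 16 genes 10 were above background everywhere. Ccl2, which attracts monocytes, read 14.56, 17.06 and 13.71, and Cxcl1, which attracts neutrophils, 10.72, 12.34 and 10.63. Cxcl2 was above background in 2 cultures at 3.43, 9.19 and 3.13, and Ptgs2, the inducible cyclooxygenase, at 2.57, 8.31 and 5.51. Tnf, Il1b and Nos2 were above background in 1 culture each. Interferon response genes, by contrast, were highest in culture 1 in 19 of 24 (33.9% of all genes), with a median of 1.08 (0.64 after normexp). Isg15, a ubiquitin-like protein, read 10.59, 8.61 and 10.07 and Oasl2 10.11, 6.19 and 8.11, whereas Ifnb1, interferon beta itself, was above background in none.

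Markers of the other liver cell types are given here beside the share of all genes above background in every culture, 67.7%. Of 19 macrophage and Kupffer cell genes 15 were above background in every culture, at a median percentile of 42.7, and Timd4 in none. Culture 1 was highest in 17 of 19 (33.9% of all genes), with a median of 1.76 above the others (1.03 after normexp). The log2 of their summed signal was 14.63, 13.09 and 13.57. Clec4f, specific to Kupffer cells in the mouse, read 8.43, 1.37 and 4.11, and the complement chain C1qc 10.74, 5.52 and 8.25. Endothelial genes were above background everywhere in 13 of 16, with summed signals of 12.93, 12.87 and 13.42. Culture 3 was highest in 10 of these 16 genes, against 29.7% of all genes. Stellate cell and fibroblast genes were so in 11 of 18, with summed signals of 14.80, 14.54 and 14.23. Culture 1 was highest in 11 of these 18 (33.9% of all genes), with a median of 1.48 above the others, but of 0.24 after normexp. The collagen chain Col1a1 read 12.02, 9.87 and 8.90. In the deposited values most macrophage and stellate cell markers were thus highest in culture 1, as in many hepatocyte lists. The part of these cells in the differences of those lists was not tested. The smooth muscle actin Acta2 read 13.29, 13.42 and 13.52, and Lrat, which esterifies vitamin A, was above background in culture 1 alone (5.28, 1.97 and 1.75). Of 12 cholangiocyte genes 8 were above background everywhere, with Krt19 at 12.41, 14.89 and 10.66 and Sox9 at 10.47, 12.05 and 9.14, both highest in culture 2, and Ehf and Muc1 were above background in none. Their summed signal was 17.13, 16.52 and 15.36, mostly that of Spp1, osteopontin, which other cells also make.

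Blood cells and other organs left little signal. Of 12 lymphocyte genes 1 was above background in every culture, Cd3e, at 4.18, 4.35 and 4.71, near the lower limit of detection, and 5 were in none. Of 9 neutrophil and red cell genes none was above background in every culture. Of 35 genes of other organs 9 were, and 13 were above background in none, among them Gcg, Umod and Prl. The 9 included Tnnt2, a troponin known from heart, at 11.60, 11.77 and 11.09, and Mbp, known from myelin, at 10.03, 11.08 and 9.08. Xist, the RNA of the inactive X chromosome, was above background in all 3 cultures at 6.21, 8.46 and 8.18, and the 4 Y-linked genes Ddx3y, Eif2s3y, Kdm5d and Uty were above it in none. Of liver genes with a female bias, Cyp2b9 read 14.77, 12.94 and 13.51 and Cyp3a41a 14.62, 10.85 and 11.57, and of those with a male bias Selenbp2 read 16.97, 16.44 and 14.33. Of 12 measured female-biased genes 7 were above background in every culture, at a median percentile of 56.9. Of 8 male-biased genes 5 were, at a median percentile of 37.9, against 67.7% of all genes. The sex of the mice is not given in the sources used here.

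Spread between the cultures was then compared with the noise of the arrays. Over the 11512 genes above background everywhere, the SD between cultures had a median of 0.47, with a middle range from 0.28 to 0.75, and exceeded 1 unit in 1590 genes (13.8%), or in 433 (3.76%) after normexp. It was smaller in brighter genes: with these genes ranked by level and cut into 4 parts of equal size, the median was 0.60 in the dimmest part and 0.38 in the brightest. On each array 148 repeated probes above background had 10 spots each, and the median SD between those spots was 0.073, 0.069 and 0.062. The same probes had a median SD of 0.54 between cultures, larger than between spots in 146 of 148. Cultures 1 and 2 were least alike, with 30.6% of genes more than 1 unit apart. Cultures 1 and 3 differed so in 20.2% of genes and cultures 2 and 3 in 24.1%. Since each culture was labelled and hybridized once, the spread holds animal, isolation, culture, labelling and slide together, which cannot be told apart.

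**Figure D3:**
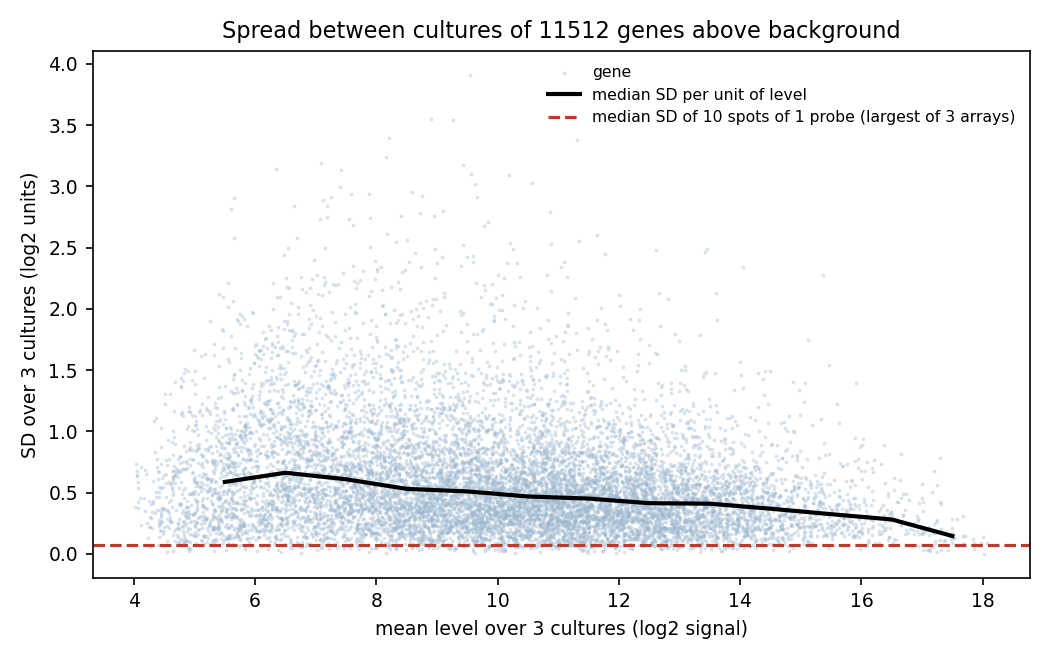
SD over the 3 cultures (vertical axis, log2 units) against mean level (horizontal axis, log2 signal) for 11512 genes above background on all 3 arrays; the black line is the median SD in steps of 1 unit of level, and the dashed line the median SD of the 10 spots of 1 probe on the array where it was largest. The median line lies above the dashed line at 0.073 throughout, and the black line comes down towards brighter genes.

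Among the 11512 genes above background in every culture, those furthest apart between cultures included several liver enzymes. Genes above background in 2 cultures reached an SD of 6.39 and those in 1 culture 4.44, but they were not ranked here. Of the 15 ranked genes with the largest SD, all at 3.02 or more, 9 were highest in culture 1, 4 in culture 2 and 2 in culture 3. Those highest in culture 1 included Acnat2, a peroxisomal acyltransferase, at 13.44, 5.62 and 9.57, Bhmt and its relative Bhmt2, Arg1, Rdh7, a retinol dehydrogenase, the interferon-induced GTPase Iigp1 (14.51, 7.78 and 11.64) and the chemokine Cxcl13 (10.86, 4.74 and 6.62). Those highest in culture 2 included Cxcl3 (6.33, 10.59 and 4.35), Eps8l3 (4.97, 9.93 and 4.12) and Atp13a4 (7.12, 13.30 and 10.15). Culture 3 was highest in Grhl2, an epithelial transcription factor (4.43, 9.72 and 10.32), and in Tcf7l2. For Tcf7l2, a transcription factor of Wnt signalling, the 3 values were 10.56, 9.16 and 16.53. The value in culture 3 came from a spot that the scanner software had flagged as an outlier. With flagged spots left out, its deviation in culture 3 went from 6.67 to 1.01, with another probe standing for the gene. Of the 82 genes named for level, SD or deviation, Lyrm1 was the only other with a flagged spot.

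**Figure D4:**
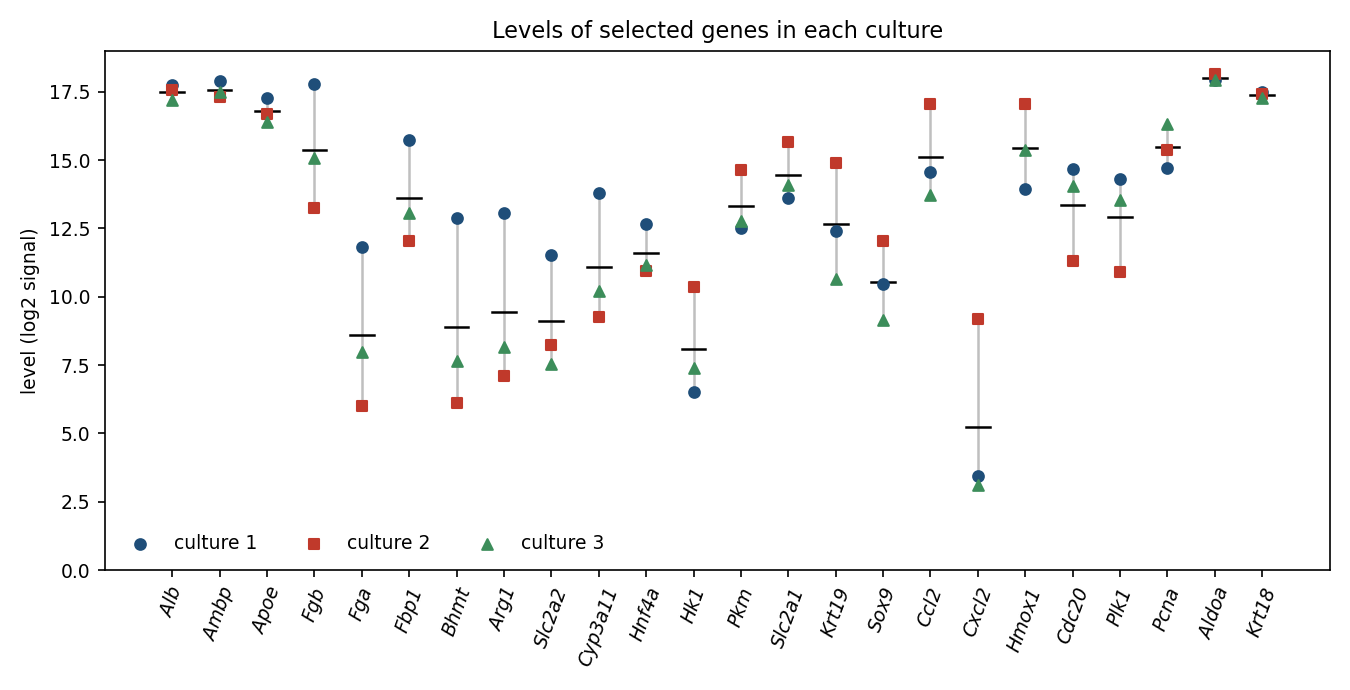
Level (log2 signal, vertical axis) of selected genes in culture 1 (circles), culture 2 (squares) and culture 3 (triangles), with the range as a grey line and the mean as a black bar; the genes were picked after their values were seen. Hepatocyte enzymes and fibrinogen chains are highest in culture 1, Hk1, Pkm, Slc2a1, Krt19, Ccl2, Cxcl2 and Hmox1 in culture 2, and Aldoa and Krt18 differ little.

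Each culture had its own set of outlying genes. These sets were also taken from the 11512 genes above background in every culture. Culture 1 stood more than 2 units above the mean of the others in 267 genes and more than 2 below in 240. The 10 furthest above, from 4.80 to 6.00, included Bhmt, Acnat2, Arg1, Cxcl13, Rdh7, Hgd and Fga. The furthest below, by up to -5.59, included the transcription factors Grhl2, Foxd1 (5.46, 9.78 and 11.03) and Nkx6-2 (7.55, 10.74 and 12.45). Culture 2 stood more than 2 above in 337 genes and below in 259. Its own highest genes included Serpinb2, an inhibitor of plasminogen activators, at 7.09, 11.57 and 6.55, Scin, an actin-severing protein (3.88, 8.85 and 4.08), and Lce1d, of the skin's cornified envelope (5.30, 11.08 and 7.25). Its lowest included Cd5l, secreted by macrophages (10.50, 5.85 and 9.56), and Ramp2, an endothelial receptor partner (9.35, 5.22 and 9.36). Culture 3 had fewer, 108 above and 157 below. Transcription factors were among those above, such as Sox12 (5.08, 6.35 and 10.79), Tbx21 (5.58, 5.42 and 10.23) and Hmx1 (4.02, 4.32 and 8.63), and Dio3, which inactivates thyroid hormone, read 11.57, 9.06 and 14.27. Below were Cckbr, a gastrin receptor, at 9.18, 8.67 and 3.89, and Lox, which cross-links collagen, at 7.91, 10.63 and 5.14.

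**Figure D5:**
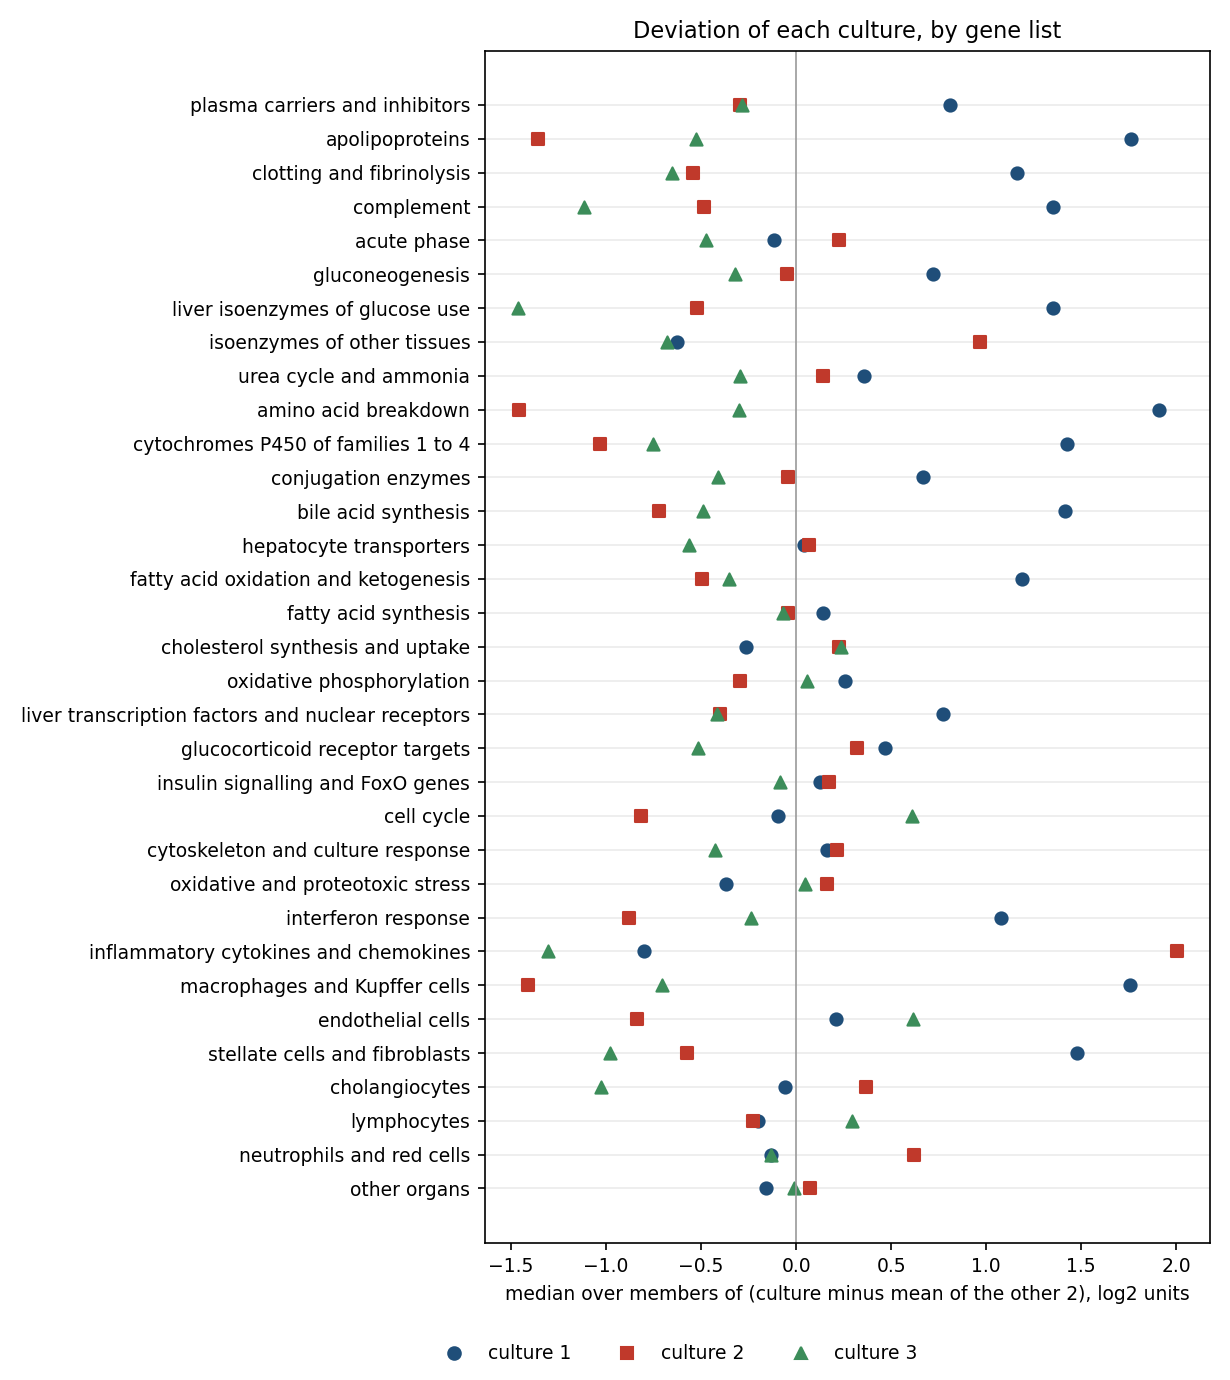
Median over the measured members of each list (rows) of the culture's value minus the mean of the other 2 (horizontal axis, log2 units), for culture 1 (circles), culture 2 (squares) and culture 3 (triangles). Culture 1 lies to the right in most liver lists, at 1.91 in amino acid breakdown, culture 2 lies furthest right in cytokines, at 2.00, and oxidative phosphorylation stays near 0 in all 3.

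A second probe of the same gene showed whether such differences were shared. In 3879 genes with at least 2 probes above background everywhere, the deviations of the brightest probe and of the next correlated with r of 0.66, 0.76 and 0.79 for cultures 1, 2 and 3. These correlations are across genes, which are not independent replicates, and both probes were read on the same arrays and from the same labelled RNA. Of the genes whose brightest probe stood more than 2 units from the mean of the other cultures, the second deviated in the same direction in 92 of 96, 116 of 121 and 46 of 47. Serpinb2, for example, read 7.09, 11.57 and 6.55 on 1 probe and 6.81, 11.02 and 5.70 on the other. Foxd1 read 5.17, 9.50 and 10.73 on its second probe.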

How the data were processed

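Total RNA of 12 cultures was labelled with Cy3 and hybridized to 1-colour Agilent mouse arrays, and the 3 arrays of +/+ cells with the control vector were analysed. The array files hold processed intensity per spot, which the authors made with Feature Extraction 10.1.1.1, per the file headers. The deposited table holds log2 values, floored at 1 and quantile normalized over 12 arrays by the authors, per the labels' design text. Limma is named by the submitters' processing notes with no version. Values recomputed from the array files correlated with the deposited table at 0.99997 or more per array, and every column had a median of 5.30. The deposited values were used, with spots of a probe already averaged, and no column was left out.

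A probe counted as above background where the scanner's flag was set on at least 0.5 of its spots. Symbols came from RefSeq accessions (GRCm38.p6, names only, since the arrays name another build). The 16799 probes without a match stay unnamed here. Of 773 genes in 44 lists 742 were measured, 4 under another symbol, and the other 31 (among them Pck1, Cps1, Cd68 and Mki67) had no matched probe. Flagged spots (116, 206 and 80 per array) were kept, as in the deposited values. The members, lists and named genes were chosen with earlier results of these data known. Named genes were first the 30 highest. Genes above background in every culture gave the 15 with the largest SD and the 10 furthest above and below in each culture. Each list gave the 4 highest, the most variable and up to 4 undetected members, and a fixed set included Alb, Ppargc1a and Xist. Some genes that the rule names are not reported here. Other genes named above were picked from the lists after their values were seen. No test was made, because 1 group was described and each culture had 1 array. Depth has no count on an array, and the number of arrays limits precision. The normalization code was tested on simulated data. Python 3.11.15, pandas 2.3.3, R 4.3.3 and limma 3.58.1 (for normexp) were used. Alternatives were other normalizations, probe and detection rules, and leaving out each culture.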

Additional observations from a re-analysis of the deposited data

How the results depend on the processing

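How many genes spread by more than 1 unit depended on the processing. From 1590 (13.8%), the count was 433 (3.76%) after normexp background correction with an offset of 50 (the cause was not tested), 442 (7.68%) among genes above the median level, and 3377 with no filter on dim probes. The median SD was 0.47, and 0.30 after normexp. Without 1 culture at a time, the median SD was 0.35 to 0.43, the count 1317 to 2058 and the share 10.8% to 17.8%, and 11553 to 12220 genes were above background on both remaining arrays. The deviation of Tcf7l2 in culture 3 reversed to -3.19 after normexp. The cause was not tested. That of Lyrm1 in culture 2 was 0.24 after normexp, against 4.69. Of 573 such values for 82 named genes under the alternatives, 515 moved by less than the gene's SD, 57 by more and 1 reversed. The 11 list medians that the text leads with (8 in culture 1, 3 in culture 2; picked after their values were seen) kept their sign in 88 of 88 alternatives, but 7 of the 11 were over 1.5 times smaller after normexp: complement 0.74, amino acid breakdown 0.85, cytochromes P450 0.86 and macrophages 1.03 in culture 1, and isoenzymes of other tissues 0.50, cell cycle -0.53 and cytokines 1.05 in culture 2. Among members above background on all 3 arrays, isoenzymes of other tissues in culture 2 (1.49) and cytochromes P450 in culture 1 (1.51) had larger medians. Smaller ones were those of amino acid breakdown (1.48), macrophages (1.43), complement (1.30), clotting (1.15) and fatty acid oxidation (1.01) in culture 1. Cytokines in culture 2 were also smaller, at 1.65. Plasma carriers, apolipoproteins and cell cycle genes were unchanged, as all their measured members were above background. Of the 30 brightest genes 27 or 28 stayed among the 30 brightest without 1 culture. Normexp on mean signals was not run because the files used here hold median signals, and median signals were taken in its place. That alternative, the medians over members above background on all 3 arrays, and the alternatives for promoters and second probes were chosen after seeing the data. No paired analysis was possible because 1 group was described and the values come from no test.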

Other observations

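Large gene families show how far the background rule separates expressed from silent genes; they were picked after the values were seen. Of 886 olfactory receptor genes, expressed in the nose, 64 (7.2%) were above background in all 3 cultures and 693 in none. Of 118 vomeronasal receptors 7 were above it in all and 95 in none. At the other end were the 77 mitochondrial ribosomal proteins, all above background in every culture, as were 43 of 44 proteasome genes and 91 of 94 cytosolic ribosomal proteins. The 41 complex I subunits were likewise all above it, at a median percentile of 93.9. Their median SD was 0.39, against 0.19 for the 30 listed genes of oxidative phosphorylation. Culture 2 was lowest in 34 of the 41 (36.4% of all genes), with a median deviation of -0.51. Among genes above background in every culture, Olfr693 and Olfr159 were of those furthest apart, at 4.29, 8.99 and 3.68 and at 7.76, 9.01 and 4.63. Of 14 late cornified envelope genes of the skin 7 were above background in every culture, with a median SD of 2.16. Culture 2 was highest in 12 of the 14 (36.4% of all genes), and stood above the mean of the others by a median of 3.56, more than in any of the 44 lists. These are related genes of 1 family, so their probes may share signal.

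The 5 major urinary protein genes, which encode pheromone carriers made by liver, were all above background in every culture, at a median percentile of 96.9, but they are near copies whose probes may share signal. Of 39 keratin genes 12 were above background everywhere and 21 nowhere. Clock genes were above background everywhere in 15 of 16 cases, and culture 2 was the highest in 9 (36.4% of all genes). Nr1d1, the clock repressor REV-ERBalpha, read 4.17, 7.29 and 6.75, and Dbp, an output gene of the clock, 8.49, 8.38 and 8.25. The hour of harvest is not in the labels.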
